A study of Mus musculus with 6 samples.

Results

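The genes described here are the axon guidance ligands and receptors of the semaphorin, ephrin, Slit and netrin systems, chosen by symbol (the Sema3 to Sema7, Plxn, Nrp, Eph, Efn, Slit, Robo, Ntn and Unc5 families, Dcc and Neo1). The symbols matched 60 of the 17027 genes listed, with 231 of the 50829 isoforms. Of these, 59 are guidance genes: 28 of the semaphorin system, 20 of the ephrin system, 4 of the Slit system and 7 of the netrin system. The remaining match, Unc50, is a protein of the Golgi membrane that shares only its first letters with the Unc5 receptors.

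The cells were retinal ganglion cells (RGCs), the neurons whose axons form the optic nerve, from wild-type (WT) mice of the strain given as C57/6NCrl. There were 2 libraries at embryonic day 18 (E18), 2 at postnatal day 5 (P5) and 2 at 8 weeks of age (Adult). The labels give no mutation, injury or treatment for any group. The cells were caught on antibody to Thy1 after antibodies had removed macrophages and, in the protocol of the samples, amacrine cells. The labels do not say whether replicates came from different animals, so p-values reflect only how far these libraries differed, which may be technical.

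Guidance receptors sit on the growth cone and turn contact with a ligand into attraction or repulsion by acting on the cytoskeleton. In the retina, netrin and its receptor Dcc help axons leave the eye, and Slits acting on Robo receptors keep them on course towards the chiasm. Eph receptors and ephrins sort axons at the midline and set the map of the retina on its targets. Semaphorins act through plexins and neuropilins on crossing at the chiasm, on dendrite layers and on targeting.

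Values are FPKM, the fragments mapped to a transcript relative to its length and to all mapped fragments, summed over a gene's isoforms, and changes are differences of log2(FPKM + 1) from limma with their standard error (SE). A gene was tested if its mean reached 1 FPKM, and was called, written as rose or fell, at an adjusted p under 0.05 over all 14390 tested genes. Where values are given in pairs, the first is replicate 1 at E18 and in Adult, and library a at P5.

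The make-up of the libraries differed by age. The summed level of 19 RGC markers came to 4888 and 5528 at E18, to 5296 and 4846 at P5, and to 623 and 424 in Adult (FPKM), and 16 of the 19 fell in Adult against P5, with a median log2 change of -3.10. Sums for rod markers (15 genes, 14 rose) were 7025 and 982 FPKM in Adult, against 375 and 399 FPKM at P5. At P5 nearly all of that sum was Gnb1, the gene that did not rise; without it the sums were 6608 and 819 FPKM in Adult and 12.4 and 9.92 FPKM at P5. Those for Müller glia markers (12 genes, 11 tested, 10 rose) were 1579.7 and 1892 FPKM in Adult, against 207 and 212 FPKM at P5. Of 11 tested amacrine markers 9 rose, with sums of 1721 and 2079.8 FPKM in Adult and 1218 and 1116 FPKM at P5. Calb2 made up most of those P5 sums, with 815 and 678 FPKM. It was the amacrine marker that fell, to 253 and 156 FPKM in Adult. Of 11 tested bipolar markers 10 rose, although their sums were 187 and 173 FPKM in Adult and 138 and 152 FPKM at P5. Isl1, also an RGC marker, made up most of those P5 sums, with 115 and 136 FPKM. It was the bipolar marker that fell, to 9.18 and 8.52 FPKM in Adult. Astrocyte markers, 3 of 6 listed, summed to 321 and 405 FPKM in Adult and 25.3 and 13.8 FPKM at P5, nearly all of it Aldoc; the other genes, Aldh1l1 and S100b, summed to 3.19 and 2.62 FPKM in Adult and 1.13 and 0.835 FPKM at P5. Of 10 macrophage markers 1 was listed, at 0 to 1.25 FPKM. At E18, replicate 1 stood apart in progenitor and cell cycle markers, with 150.1 FPKM against 36.4 FPKM in replicate 2. In bulk RNA, fewer cells of a type and less RNA per cell cannot be told apart, and the part of other cells in the changes below was not tested. Depth is unknown, because FPKM carry no counts.

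**Figure D1:**
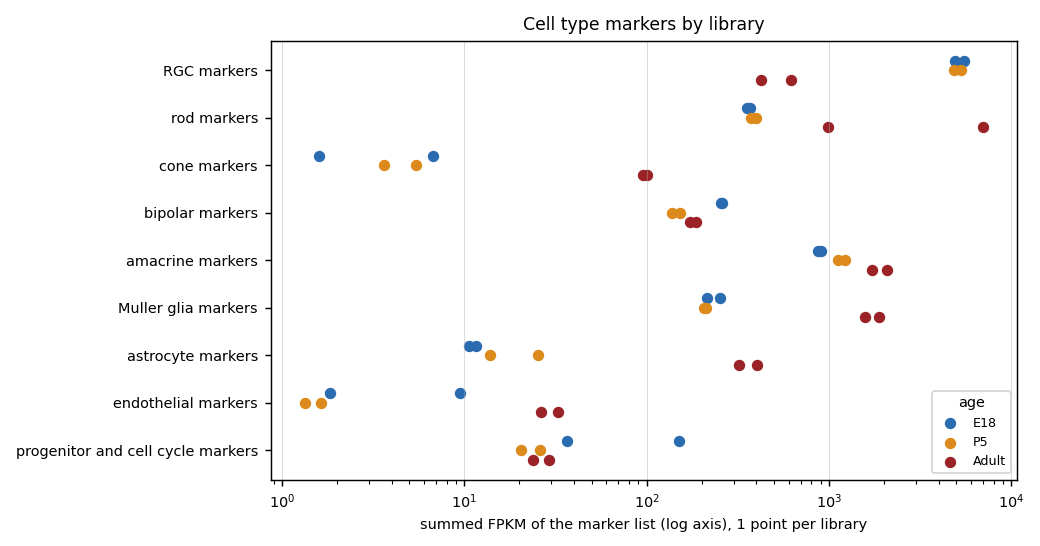
Summed FPKM of 9 lists of cell type markers (rows) on a log axis, with 1 point per library coloured by age. The RGC markers sat at 623 and 424 FPKM in the Adult libraries, against 4846 to 5528 FPKM in the others, and rod, cone and Müller glia markers stood highest in Adult. The astrocyte sum is nearly all Aldoc.

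Most guidance genes were present at every age, and most of the change came between P5 and Adult. Of the 60 genes, 35 averaged at least 10 FPKM over the libraries and 55 were tested. In Adult against P5, 13 of the 55 rose and 23 fell (65.45%, where 59.8% of all tested genes were called, 26.2% rising and 33.7% falling). In P5 against E18, 3 rose and 5 fell (14.55%, where 10.5% of all tested genes were called, 5.52% rising and 4.95% falling), and each of these 8 calls was lost in at least 4 of 6 fits that left out a single library. Leaving out P5 library a, or either E18 library, 0 rose and 0 fell in that comparison. Without P5 library b 0 rose and 2 fell, without Adult replicate 1 it was 1 and 1, and without Adult replicate 2 it was 2 and 1. Few genes of any kind were called there: 10 of the 14390 without P5 library a, 28 and 117 without E18 replicate 1 and 2, and 579 to 642 without P5 library b or an Adult library, against 1507 with all 6 libraries. Why the calls of the guidance genes were lost was not tested. In Adult against E18, 12 rose and 26 fell (69.09%, where 59.7% were called, 25.3% rising and 34.4% falling). The shares of called genes were near the background in each comparison, more of the guidance genes falling. Libraries of the ages compared did not overlap in 37 of the 55 genes in P5 against E18 and in 44 in Adult against P5. Lack of overlap alone therefore says little, and it was not counted over all genes. The median change of the 55 genes was -0.13 in P5 against E18 and -0.13 in Adult against P5, beside -0.03 and -0.07 for all tested genes, and in Adult against E18 it was -0.40, beside -0.11.

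None of the 55 genes fell in Adult by as much as the median RGC marker. On the log2(FPKM + 1) scale, however, a gene low at P5 cannot fall that far even if lost entirely. The median level at P5 was 8.99 and 10.5 FPKM for the 60 genes, against 115 and 122 FPKM for the RGC markers. Scaling each library to the same sum of transcripts (TPM), which moved the median of all genes in Adult against P5 to -0.76, changed the split to 7 rising and 33 falling, where 11.9% of all tested genes rose and 59.8% fell. In Adult against E18 it became 9 and 34, where 14.2% of all tested genes rose and 56.6% fell. These splits lay near those of all genes on that scale. In P5 against E18 the split was 5 rising and 4 falling with TPM (10.3% and 3.24% of all tested genes), and 3 and 3 after quantile normalization (5.46% and 3.53%). Without Adult replicate 1, the library with most rod RNA, 15 rose and 19 fell in Adult against P5, where 22.2% of all tested genes rose and 29.0% fell.

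**Figure D2:**
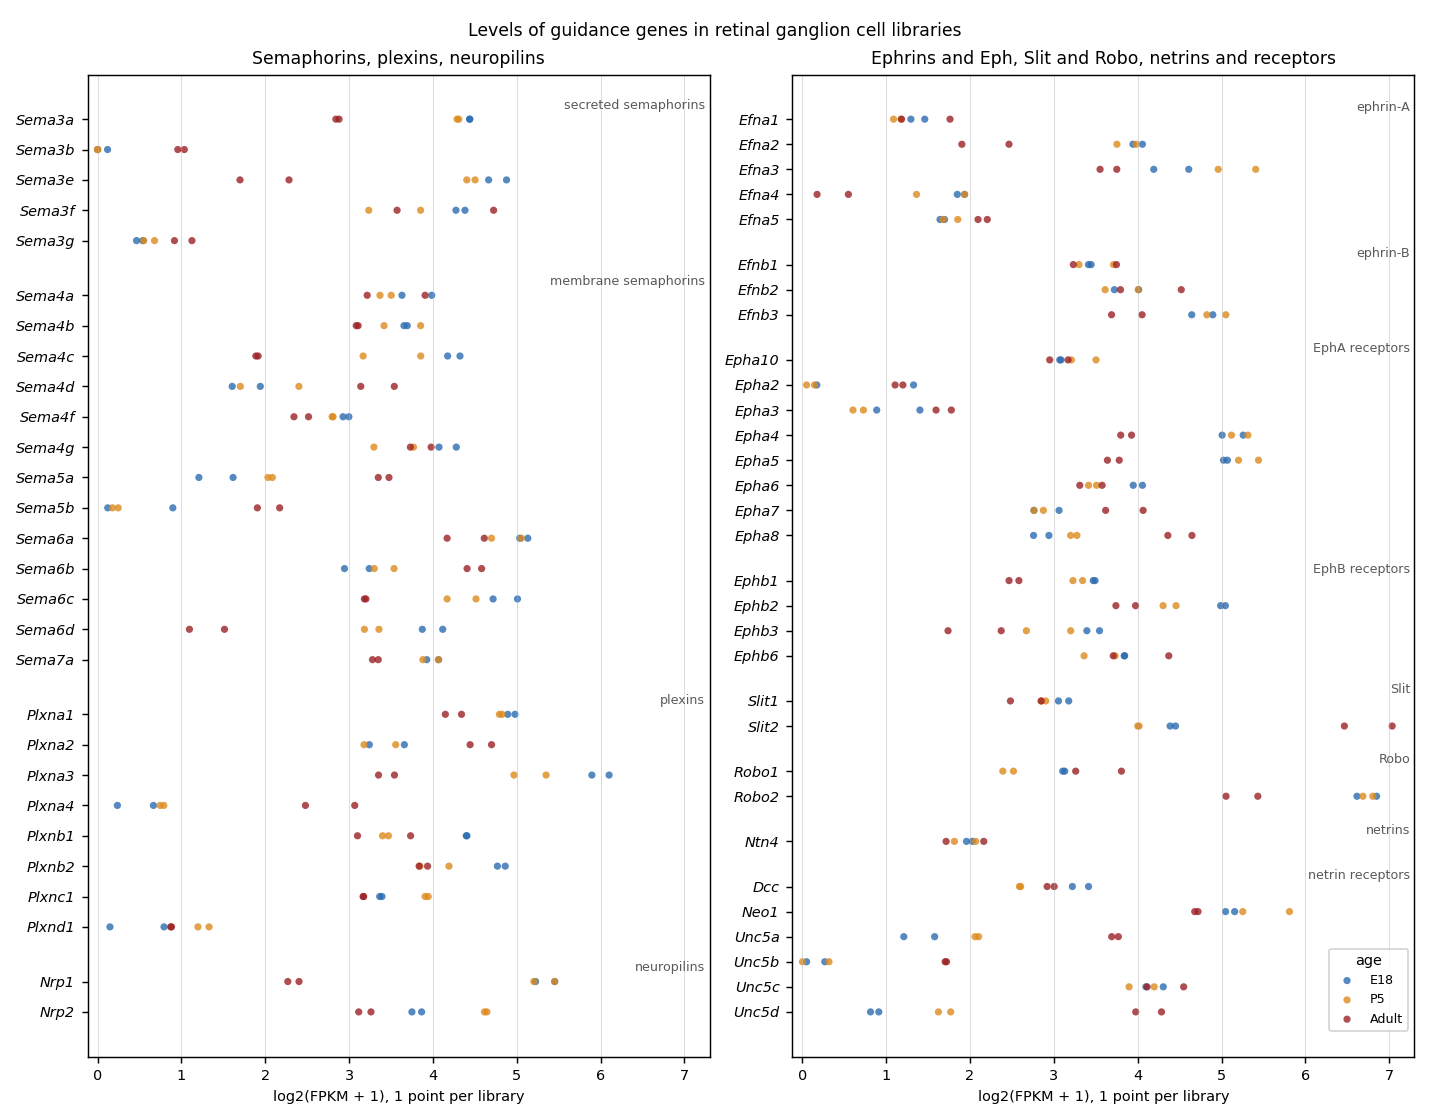
Level of the 59 guidance genes on the log2(FPKM + 1) scale, with 1 point per library coloured by age and genes grouped by family. Slit2 in Adult, at 87.3 and 130.1 FPKM, and Robo2 at E18 and P5 were the highest values, and Nrp1, Sema3e and Plxna3 show Adult points far left of the others.

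The secreted semaphorins are ligands of the plexin and neuropilin complexes. Of the 3 that were tested, 2 fell in Adult against P5, where 33.7% of all tested genes fell. Sema3a, which repels axons through Nrp1 and A-type plexins, had FPKM of 20.7 and 20.7 at E18, of 18.8 and 18.5 at P5, and of 6.36 and 6.17 in Adult. The Adult libraries lay below all others (log2 change -1.44, SE 0.11, adjusted p = 0.000141 against P5). Sema3e, the ligand of Plxnd1, had FPKM of 24.4 and 28.4 at E18, of 21.7 and 20.2 at P5, and of 3.87 and 2.25 in Adult, and fell 6.85-fold in mean level in Adult against P5 (log2 change -2.46, SE 0.21, adjusted p = 0.000209). Sema3f, which acts through Nrp2, had FPKM of 18.4 and 19.9 at E18, of 8.41 and 13.4 at P5, and of 25.4 and 10.9 in Adult; the Adult libraries were far apart and overlapped with the earlier ages, and no comparison passed the test. Sema3b and Sema3g did not reach the minimum for a test. Sema3b stayed under 0.1 FPKM at E18 and P5 and had 1.05 and 0.941 FPKM in Adult, and Sema3g had FPKM of 0.380 and 0.451 at E18, of 0.601 and 0.466 at P5, and of 0.888 and 1.18 in Adult.

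Among the 13 membrane semaphorins, 4 rose and 5 fell in Adult against P5, where 26.2% of all tested genes rose and 33.7% fell. None of the 13 was called in P5 against E18, where 10.5% of all tested genes were called. The genes that fell included Sema6d, a ligand of Plxna1 at the optic chiasm, with FPKM of 13.7 and 16.4 at E18, of 8.08 and 9.24 at P5, and of 1.14 and 1.85 in Adult (log2 change -1.97, SE 0.19, adjusted p = 0.000333 against P5). The levels were lower at each age, but the step at P5 was not called (adjusted p = 0.0623). Sema4c, a ligand of Plxnb2, had FPKM of 17.1 and 19.01 at E18, of 7.98 and 13.5 at P5, and of 2.77 and 2.70 in Adult (log2 change -1.61, SE 0.23, adjusted p = 0.00154); exons of a gene on the opposite strand cover 7.272% of its exonic bases, and whether counting used the strand is not given in the sources used here. Sema6c had FPKM of 25.3 and 31.2 at E18, of 16.99 and 21.8 at P5, and of 8.08 and 8.20 in Adult (log2 change -1.15, SE 0.16, adjusted p = 0.00149). Both had the same order of ages as Sema6d. Sema7a, a lipid-anchored ligand of Plxnc1, fell less, to 9.18 and 8.71 FPKM in Adult, against 13.7 and 15.7 FPKM at P5 (log2 change -0.66, SE 0.13, adjusted p = 0.00505). Sema4b also fell against P5 (log2 change -0.54, adjusted p = 0.0309), a call lost without P5 library b (adjusted p = 0.0776), either E18 library (0.0714 and 0.0717) or either Adult library (0.12 and 0.109), and with the 4 libraries compared alone (0.0757).

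The membrane semaphorins that rose in Adult were lower or intermediate in young cells. Sema5a, which in the mouse retina confines neurites to the inner plexiform layer through Plxna1 and Plxna3, had FPKM of 2.07 and 1.31 at E18, of 3.24 and 3.09 at P5, and of 10.1 and 9.18 in Adult (log2 change 1.35, SE 0.18, adjusted p = 0.00121 against P5). Its relative Sema5b had 2.75 and 3.50 FPKM in Adult, against 0.186 and 0.130 FPKM at P5 (log2 change 1.83, SE 0.30, adjusted p = 0.00247); at E18 it had 0.863 FPKM in replicate 1, the library with more progenitor markers, and 0.0874 FPKM in replicate 2. Sema6b, a ligand of Plxna4, rose to 20.2 and 22.9 FPKM in Adult, against 8.85 and 10.6 FPKM at P5 (log2 change 1.08, SE 0.16, adjusted p = 0.00177). Sema4d, a ligand of Plxnb1, rose to 7.81 and 10.6 FPKM in Adult, against 2.25 and 4.28 FPKM at P5 (log2 change 1.29, SE 0.28, adjusted p = 0.00833). The calls of Sema6b and Sema4d were lost with TPM (adjusted p = 0.0658 and 0.0863), and that of Sema4d also without Adult replicate 2 (adjusted p = 0.063).

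Sema6a, which binds Plxna2 and Plxna4, was the highest membrane semaphorin by its mean over the libraries, with FPKM of 34.1 and 31.8 at E18, of 24.97 and 32.2 at P5, and of 16.99 and 23.5 in Adult. It was not called in Adult against P5 (log2 change -0.49, SE 0.19, adjusted p = 0.0646) but fell in Adult against E18 (log2 change -0.69, SE 0.19, adjusted p = 0.0192), a call that ended without either E18 library or Adult replicate 1 (adjusted p = 0.101, 0.0729 and 0.0979), and after quantile normalization (0.0602). Sema4f fell in Adult against E18 in the same way (log2 change -0.53, adjusted p = 0.0151), and its call was lost without either E18 library (0.0785 and 0.114) or Adult replicate 1 (0.0654). Sema4a and Sema4g passed no test at the level of the gene, with means of 13.1, 9.83 and 11.1 FPKM for Sema4a and 17.1, 10.7 and 13.5 FPKM for Sema4g at E18, P5 and Adult.

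The neuropilins, the ligand-binding partners of plexins for secreted semaphorins, both fell in Adult. Nrp1 (GRCm38 chr8:128358604-128503363, plus strand) had FPKM of 36.4 and 42.8 at E18, of 35.9 and 42.8 at P5, and of 4.29 and 3.82 in Adult. E18 and P5 libraries overlapped, and both Adult libraries were far below them, a 9.70-fold lower mean in Adult than at P5 (log2 change -2.99, SE 0.14, adjusted p = 4.48e-05). Most of this level lay in a transcript outside the annotation, described with the isoforms. Nrp2, the partner for Sema3f, had FPKM of 12.5 and 13.6 at E18, of 23.999 and 23.5 at P5, and of 7.66 and 8.59 in Adult. It was highest at P5, where it rose against E18 (log2 change 0.82, SE 0.12, adjusted p = 0.0165; a call lost in 4 of 6 fits that each left out a library, at adjusted p up to 0.163). It fell in Adult against P5 (log2 change -1.44, SE 0.12, adjusted p = 0.00019). Nrp1 made up 74.5% and 75.9% of the summed neuropilin level at E18, then 59.9% and 64.5% at P5, then 35.9% and 30.8% in Adult.

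The plexins, the signalling receptors for semaphorins, showed falls at both steps and a different leading gene in Adult. Plxna3 was the highest at E18 and had FPKM of 58.5 and 67.7 at E18, of 39.8 and 30.3 at P5, and of 10.6 and 9.20 in Adult. It fell in P5 against E18 (log2 change -0.84, SE 0.16, adjusted p = 0.0316; a call lost in 6 of 6 fits that each left out a library, at adjusted p up to 0.175) and again in Adult against P5 (log2 change -1.71, SE 0.16, adjusted p = 0.000319), with no overlap between ages. Plxna1, used by RGC axons at the midline, fell by less, with FPKM of 28.7 and 30.5 at E18, of 27.3 and 26.7 at P5, and of 16.7 and 19.3 in Adult (log2 change -0.56, SE 0.11, adjusted p = 0.00599); 10.71% of its exonic bases are shared with a gene on the opposite strand. Plxna4 ran the other way, with FPKM of 0.586 and 0.178 at E18, of 0.729 and 0.677 at P5, and of 4.58 and 7.38 in Adult (log2 change 2.01, SE 0.26, adjusted p = 0.00111). Plxna2 rose to 20.8 and 24.98 FPKM in Adult, against 8.05 and 10.8 FPKM at P5 (log2 change 1.20, SE 0.20, adjusted p = 0.00304), although this call ended with TPM (adjusted p = 0.0768). The share of Plxna3 in the summed plexin level was 12.2% and 10.1% in Adult, against 37.5% and 41.1% at E18, and that of Plxna2 was 23.8% and 27.3% in Adult, against 7.46% and 5.14% at E18.

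The B-type plexins, receptors of class 4 semaphorins, fell in P5 against E18 and were not called in Adult against P5. Plxnb2 had FPKM of 26.3 and 28.1 at E18, of 13.4 and 17.3 at P5, and of 13.3 and 14.3 in Adult, and fell in P5 against E18 (log2 change -0.80, SE 0.15, adjusted p = 0.0271; a call lost in 5 of 6 fits that each left out a library, at adjusted p up to 0.188). Its change in Adult against P5 was -0.13 with a 95% interval from -0.48 to 0.22. Plxnb1 fell to 9.55 and 10.1 FPKM at P5, against 20.2 and 20.1 FPKM at E18 (log2 change -0.97, SE 0.21, adjusted p = 0.0389; a call lost in 4 of 6 fits that each left out a library, at adjusted p up to 0.241). Plxnc1, the receptor of Sema7a, had FPKM of 9.30 and 9.50 at E18, of 14.4 and 13.997 at P5, and of 8.02 and 7.98 in Adult. Like Nrp2, it rose at P5 (log2 change 0.55, SE 0.11, adjusted p = 0.0343; a call lost in 6 of 6 fits that each left out a library, at adjusted p up to 0.255) and fell in Adult (log2 change -0.75, SE 0.11, adjusted p = 0.00175). Plxnd1, the receptor of Sema3e, was under 2 FPKM in every library, with FPKM of 0.732 and 0.107 at E18, of 1.29 and 1.51 at P5, and of 0.830 and 0.843 in Adult, and was not tested.

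**Figure D3:**
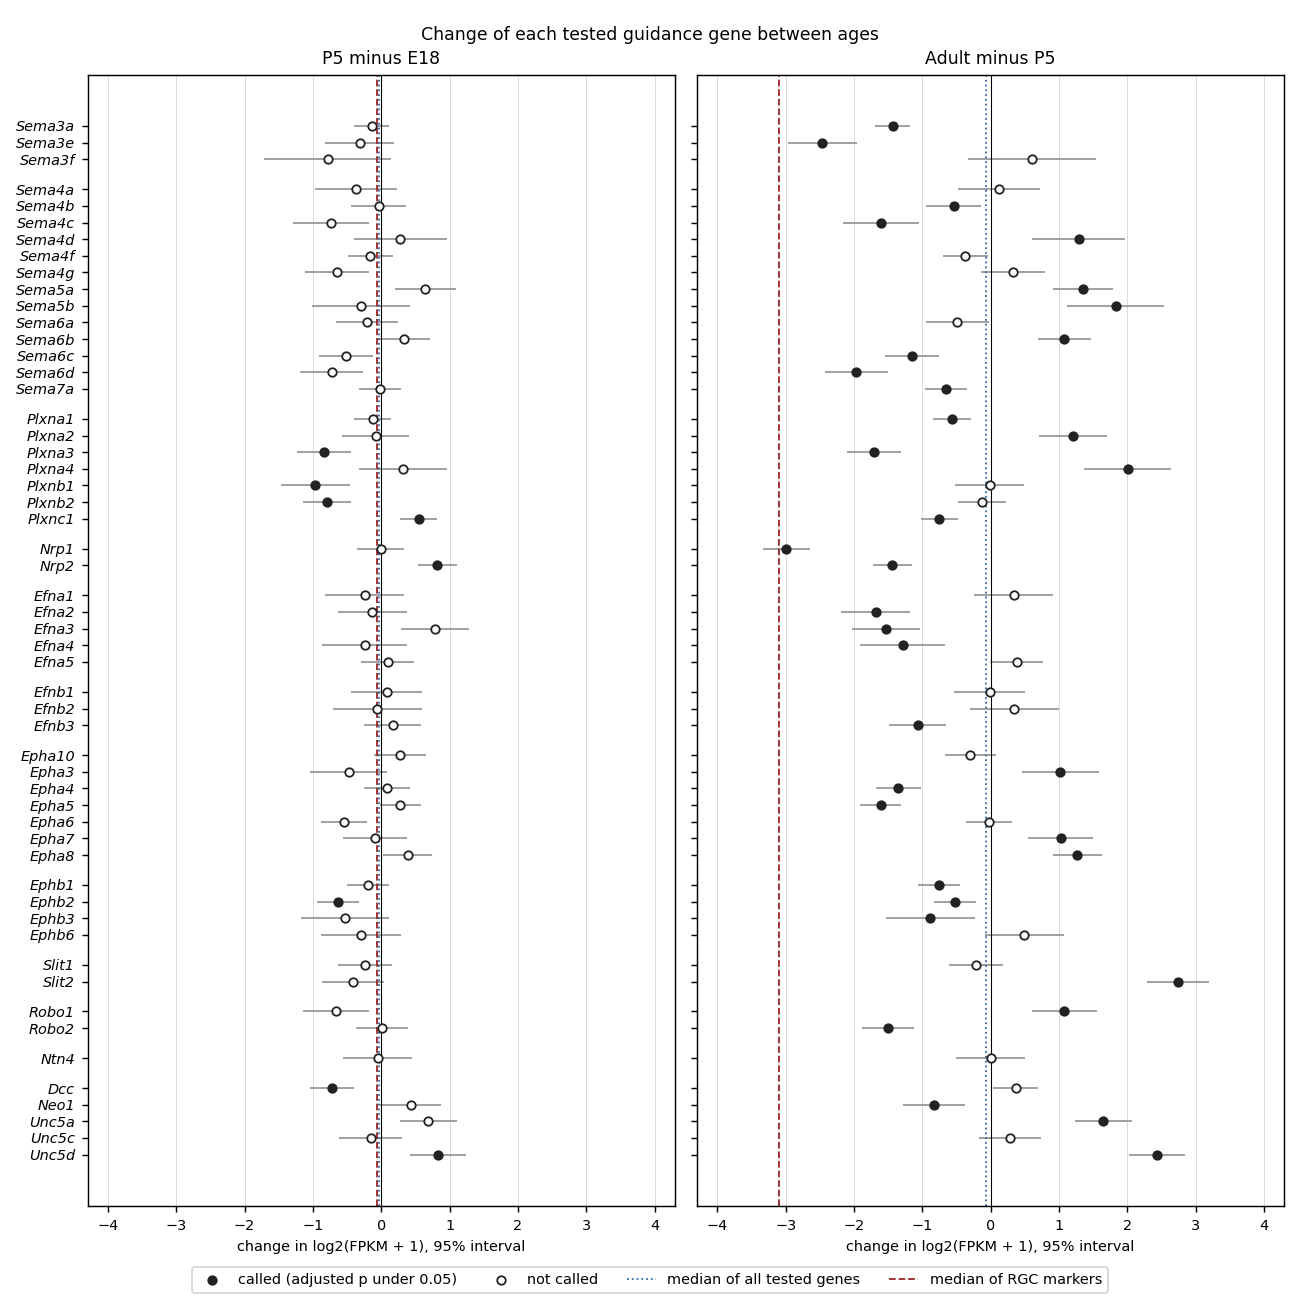
Change of each of the 54 tested guidance genes in P5 against E18 (left) and Adult against P5 (right) in log2(FPKM + 1), with 95% intervals; filled points were called. In Adult against P5 the points run from -2.99 (Nrp1) to 2.74 (Slit2), and all lie right of the dashed line at -3.10, the median of the RGC markers. Genes low at P5 cannot reach that line on this scale.

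Among the 7 tested EphA receptors, 3 rose and 2 fell in Adult against P5, where 26.2% of all tested genes rose and 33.7% fell. The leading gene differed. The summed EphA level in FPKM came to 101.3 and 106 at E18, to 110.3 and 109 at P5, and to 75.2 and 88.01 in Adult. Epha4, which binds ephrins of both classes, had FPKM of 31.1 and 37.3 at E18, of 38.8 and 33.7 at P5, and of 14.2 and 12.9 in Adult (log2 change -1.35, SE 0.14, adjusted p = 0.000382 in Adult against P5). Epha5, graded across the mouse retina and used for mapping, had FPKM of 31.5 and 32.6 at E18, of 35.8 and 42.4 at P5, and of 11.5 and 12.7 in Adult (log2 change -1.61, SE 0.12, adjusted p = 0.000156). Neither was called in P5 against E18, and their Adult libraries lay below all others. Epha8 rose instead, with FPKM of 6.68 and 5.76 at E18, of 8.67 and 8.18 at P5, and of 19.5 and 24.04 in Adult (log2 change 1.27, SE 0.15, adjusted p = 0.00068), and so did Epha7, with FPKM of 5.78 and 7.35 at E18, of 6.33 and 5.78 at P5, and of 11.3 and 15.7 in Adult (log2 change 1.02, SE 0.19, adjusted p = 0.00476). At P5, Epha4 made up 35.1% and 30.9% of the EphA sum and Epha5 32.5% and 38.8%. In Adult Epha8 led with 25.9% and 27.3%, against 7.86% and 7.49% at P5.

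The other EphA receptors were lower. Epha3 rose to 2.02 and 2.42 FPKM in Adult, against 0.655 and 0.518 FPKM at P5 (log2 change 1.02, SE 0.23, adjusted p = 0.0102), and at E18 it had 1.64 FPKM in replicate 1 and 0.848 FPKM in replicate 2. With TPM the rises of Epha3 and Epha7 were no longer called (adjusted p = 0.0602 and 0.114). Epha6, another graded receptor of the temporal retina, fell in Adult against E18 (8.91 and 10.9 FPKM in Adult, 15.6 and 14.4 FPKM at E18; log2 change -0.56, SE 0.14, adjusted p = 0.0134), a call lost without either E18 library (0.0986 and 0.0615) or Adult replicate 1 (0.0652), and with annotated isoforms alone (0.153). Epha10, a receptor without kinase activity, passed no test and stayed between 6.72 and 10.3 FPKM. Epha2, not tested, had FPKM of 1.51 and 0.126 at E18, of 0.105 and 0.0348 at P5, and of 1.15 and 1.29 in Adult; its E18 libraries differed by more than 10-fold, replicate 1 being the high one.

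Of the 4 EphB receptors 3 fell in Adult against P5, where 33.7% of all tested genes fell. Ephb2, which guides axons along the dorsoventral axis, had FPKM of 32.01 and 30.7 at E18, of 18.7 and 20.96 at P5, and of 12.4 and 14.7 in Adult, with lower values at each age. It fell in P5 against E18 (log2 change -0.64, SE 0.13, adjusted p = 0.0335; a call lost in 6 of 6 fits that each left out a library, at adjusted p up to 0.238) and in Adult against P5 (log2 change -0.52, SE 0.13, adjusted p = 0.0129). The Adult call was lost without P5 library b (adjusted p = 0.054) or Adult replicate 1 (adjusted p = 0.0587). Ephb1, the receptor that steers uncrossed axons at the chiasm on contact with Efnb2, had FPKM of 10.1 and 10.2 at E18, of 9.14 and 8.36 at P5, and of 4.52 and 4.99 in Adult (log2 change -0.76, SE 0.13, adjusted p = 0.00282). Ephb3 had FPKM of 9.51 and 10.7 at E18, of 5.37 and 8.19 at P5, and of 2.33 and 4.17 in Adult (log2 change -0.88, SE 0.27, adjusted p = 0.0289), a call lost without either E18 library (0.061 and 0.0615), P5 library b (0.152) or Adult replicate 1 (0.151), and with the 4 libraries compared alone (0.0643). Ephb6, which lacks kinase activity, had FPKM of 13.4 and 13.3 at E18, of 12.3 and 9.26 at P5, and of 12.1 and 19.7 in Adult; its libraries overlapped between P5 and Adult and no comparison was called.

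Ephrins, the membrane ligands of Eph receptors, fell in Adult for 4 of 8 genes and rose for none against P5. Of all tested genes, 33.7% fell and 26.2% rose in that comparison. Efna3 was highest at P5, with FPKM of 17.3 and 23.4 at E18, of 30.1 and 41.4 at P5, and of 10.7 and 12.5 in Adult (log2 change -1.53, SE 0.21, adjusted p = 0.00121 in Adult against P5). Efna2 had FPKM of 14.4 and 15.6 at E18, of 12.5 and 14.8 at P5, and of 2.74 and 4.52 in Adult (log2 change -1.68, SE 0.21, adjusted p = 0.000849), and Efna4 had FPKM of 2.82 and 2.60 at E18, of 1.57 and 2.82 at P5, and of 0.128 and 0.462 in Adult (log2 change -1.29, SE 0.26, adjusted p = 0.00585). In all 3 the Adult libraries lay below every earlier library. Exons of genes on the opposite strand cover 14.13% of the exonic bases of Efna3 and 10.51% of those of Efna4, with the same limit as for Sema4c. Efna5, which repels temporal axons in the target, had FPKM of 2.24 and 2.12 at E18, of 2.20 and 2.61 at P5, and of 3.27 and 3.61 in Adult and was not called against P5 (log2 change 0.38, SE 0.16, adjusted p = 0.0803); in Adult against E18 it rose (log2 change 0.48, SE 0.16, adjusted p = 0.0395), but not with TPM (adjusted p = 0.897) or after quantile normalization (0.184), nor without E18 replicate 1, E18 replicate 2 or Adult replicate 2 (0.129, 0.169 and 0.0792). Efna1 stayed between 1.12 and 2.39 FPKM and passed no test.

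Among B-class ephrins, Efnb3 fell, with FPKM of 23.998 and 28.8 at E18, of 27.3 and 32.1 at P5, and of 11.9 and 15.6 in Adult (log2 change -1.07, SE 0.17, adjusted p = 0.00238). Efnb2, the ligand that Ephb1 meets at the chiasm, had FPKM of 15.1 and 12.2 at E18, of 11.2 and 15.1 at P5, and of 12.9 and 21.9 in Adult, and Efnb1 had FPKM of 9.88 and 9.64 at E18, of 8.84 and 12.1 at P5, and of 8.39 and 12.4 in Adult. Neither was called, and their libraries overlapped between all ages; the 95% interval of the change in Adult against P5 ran from -0.30 to 0.998 for Efnb2 and from -0.54 to 0.51 for Efnb1.

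**Figure D4:**
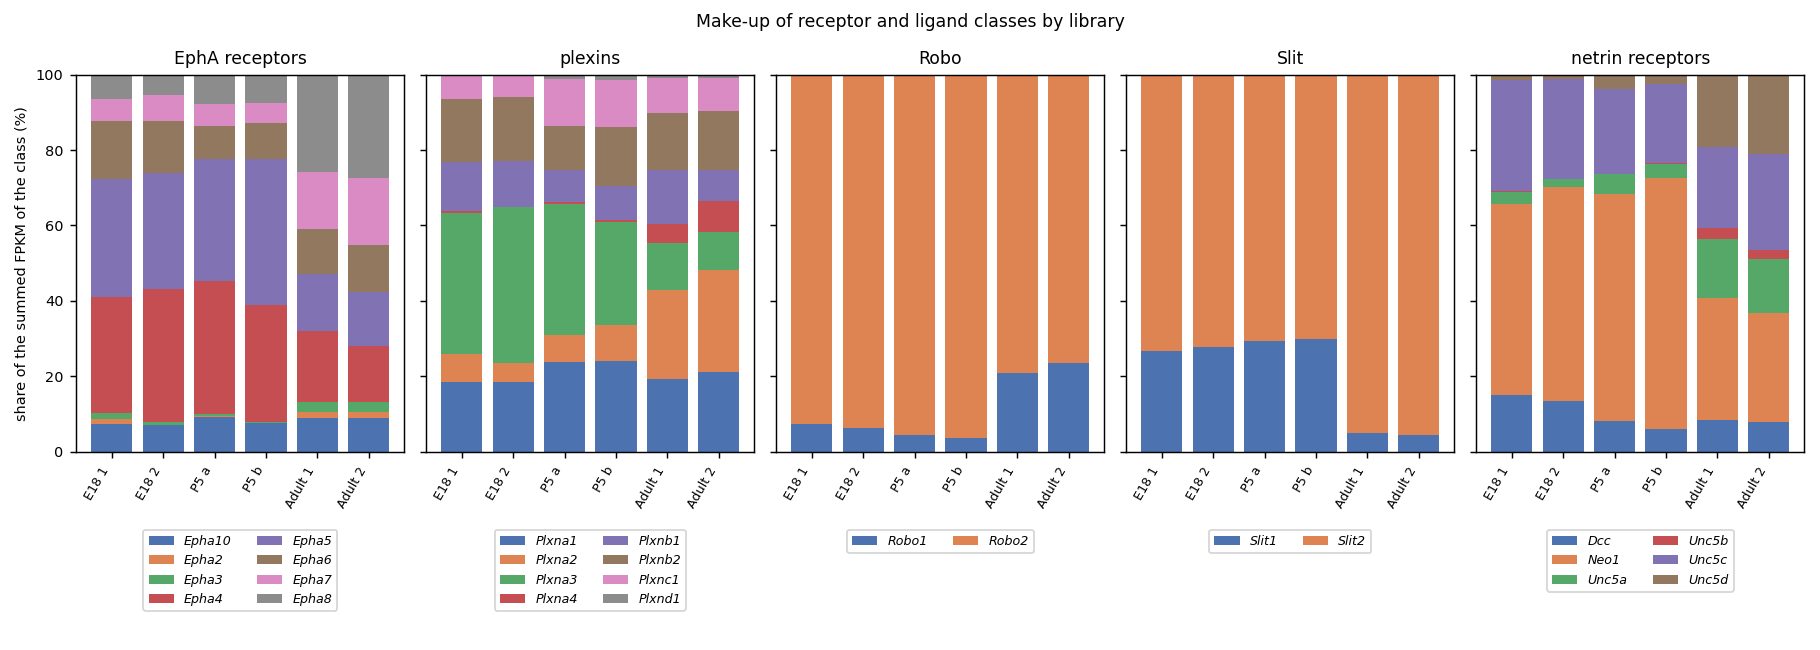
Share of each gene in the summed FPKM of its family, in percent, for 5 families (panels) and 6 libraries (bars, E18 to Adult). Epha8, Plxna2, Robo1, Slit2 and Unc5d take larger shares in the Adult bars, where those of Epha4, Epha5, Plxna3 and Neo1 shrink.

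In the Slit system the ligand Slit2 rose and the receptor Robo2 fell. Slit2 (GRCm38 chr5:47983138-48307733, plus strand), a secreted repellent that axons read through Robo receptors, had FPKM of 19.9 and 20.9 at E18, of 15.003 and 15.2 at P5, and of 87.3 and 130.1 in Adult. Both Adult libraries stood far above the rest, at 7.21 times the P5 mean (log2 change 2.74, SE 0.19, adjusted p = 0.000113), the largest rise in that comparison among the tested guidance genes. In both, sums of rod, cone, bipolar, amacrine, Müller glia, astrocyte and endothelial markers, among others, were higher than at P5. Slit2 was higher in Adult replicate 2 than in replicate 1, and these sums ran both ways. Rod, cone and bipolar sums were lower in replicate 2, the rod sum at 982 FPKM, against 7025 FPKM in replicate 1. Amacrine, Müller glia, astrocyte and endothelial sums were higher in replicate 2, as Slit2 was. The amacrine sum was 2079.8 FPKM there, against 1721 FPKM in replicate 1, and the Müller glia sum 1892 FPKM, against 1579.7 FPKM. The part of other cells in the rise of Slit2 was not tested. Slit1 did not follow, with FPKM of 7.31 and 8.04 at E18, of 6.21 and 6.47 at P5, and of 4.58 and 6.199 in Adult (log2 change -0.21, SE 0.16, adjusted p = 0.305), so that Slit2 was 95.01% and 95.5% of the summed Slit level in Adult, against 70.7% and 70.1% at P5. Robo2, the main Robo receptor of RGC axons, was the highest guidance gene in young cells, with FPKM of 97.04 and 114 at E18, of 102 and 111 at P5, and of 32.2 and 42.2 in Adult (log2 change -1.50, SE 0.16, adjusted p = 0.000434). Robo1 had FPKM of 7.60 and 7.74 at E18, of 4.72 and 4.24 at P5, and of 8.58 and 12.98 in Adult and rose against P5 (log2 change 1.08, SE 0.20, adjusted p = 0.00418), a call that TPM did not keep (adjusted p = 0.0721). In Adult, Robo1 was 21.04% and 23.5% of the summed Robo level, against 4.43% and 3.69% at P5.

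The rise of Slit2 was spread over many isoforms. The full-length form, Slit2-217 with 1542 residues and 2 listed lengths, summed to 31.8 and 49.4 FPKM in Adult, against 7.80 and 6.98 FPKM at P5. That was 36.4% and 38.0% of the gene in Adult, against 52.0% and 46.0% at P5. Slit2-204, a short coding form of 255 residues, had FPKM of 0 and 0.122 at E18, of 0.273 and 0.0671 at P5, and of 13.5 and 17.9 in Adult. Retained-intron and other short forms made up most of the rest, so the gene sum weighs short transcripts as much as the full-length form.

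The promoters of genes that rose and fell in Adult are shown for Slit2 and Unc5a, which rose, and Nrp1 and Sema3e, which fell; these 4 were chosen after their values were seen. Each is the 250 bases before the start site in the direction of the gene (RefSeq, GRCm38.p6), with capitals for a GC box (GGGCGG, or CCGCCC on the other strand) or a TATA box (TATAAA or TTTATA).
Slit2, chr5:47982905-47983154, plus strand: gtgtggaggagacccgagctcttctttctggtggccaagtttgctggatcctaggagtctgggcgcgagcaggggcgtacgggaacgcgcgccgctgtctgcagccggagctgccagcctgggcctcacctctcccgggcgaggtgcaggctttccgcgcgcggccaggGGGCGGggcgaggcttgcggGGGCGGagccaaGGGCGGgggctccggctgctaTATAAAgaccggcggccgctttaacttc
Unc5a, chr13:54949161-54949410, plus strand: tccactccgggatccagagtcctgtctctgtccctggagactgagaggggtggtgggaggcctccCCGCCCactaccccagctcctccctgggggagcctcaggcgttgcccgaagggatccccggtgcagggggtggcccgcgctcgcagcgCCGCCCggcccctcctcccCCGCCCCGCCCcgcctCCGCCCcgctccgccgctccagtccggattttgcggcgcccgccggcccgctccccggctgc
Nrp1, chr8:128358823-128359072, plus strand: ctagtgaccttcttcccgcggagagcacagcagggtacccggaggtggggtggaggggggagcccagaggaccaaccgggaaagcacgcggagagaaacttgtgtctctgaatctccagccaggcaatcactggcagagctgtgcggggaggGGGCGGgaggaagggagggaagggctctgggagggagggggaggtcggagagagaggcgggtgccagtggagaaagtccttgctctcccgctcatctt
Sema3e, chr5:14025026-14025275, plus strand: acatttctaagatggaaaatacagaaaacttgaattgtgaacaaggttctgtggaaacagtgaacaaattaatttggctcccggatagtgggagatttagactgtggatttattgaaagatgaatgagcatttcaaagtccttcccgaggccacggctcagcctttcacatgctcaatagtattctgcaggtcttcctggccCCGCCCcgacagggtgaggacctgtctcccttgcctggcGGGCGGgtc
By the gene positions given above, from GENCODE M21, the Nrp1 window lies inside the gene and that of Slit2 ends past its start. Slit2 holds 3 GC boxes and a TATA box that starts 28 bases before the RefSeq start site. Unc5a holds 5 GC boxes, of which 1 pair overlaps, Nrp1 holds 1 and Sema3e holds 2. Over all families, 51 of the 60 genes had 67 windows in the table, and 49 of the 67 held a GC box (73.13%, against 32.74% of 32851 windows). A TATA box stood in 2 (2.985%, against 12.37%), a CCAAT box (CCAAT or ATTGG) in 18 (26.87%, against 33.85%), and the E-box CAGCTG, the same on both strands, in 9 (13.43%, against 13%). Median GC content was 64.4% in the windows of these genes and 52.4% in all windows. Motif letters overlapped in 7 of the 67 windows. A match of letters is a description and not a bound site.

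In the netrin system the repulsive receptors Unc5a and Unc5d rose while Neo1 fell. Unc5d had FPKM of 0.880 and 0.756 at E18, of 2.41 and 2.08 at P5, and of 14.7 and 18.5 in Adult. It was higher at each age without overlap (log2 change 0.83, SE 0.17, adjusted p = 0.0343 in P5 against E18, a call lost in 5 of 6 fits that each left out a library, at adjusted p up to 0.21; log2 change 2.43, SE 0.17, adjusted p = 0.000119 in Adult against P5). Its rise in Adult against E18 was the largest of all 55 genes (log2 change 3.27). Unc5a had FPKM of 1.98 and 1.31 at E18, of 3.29 and 3.17 at P5, and of 11.9 and 12.6 in Adult (log2 change 1.65, SE 0.17, adjusted p = 0.000432). Unc5b was under 0.3 FPKM at E18 and P5 and had 2.29 and 2.25 FPKM in Adult, but its mean did not reach the minimum for a test. Unc5c, the highest Unc5 receptor at every age, had FPKM of 18.8 and 16.1 at E18, of 13.9 and 17.3 at P5, and of 16.3 and 22.4 in Adult and was not called in any comparison (log2 change 0.28, SE 0.19, adjusted p = 0.239).

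Dcc, the attractive netrin receptor, had FPKM of 9.65 and 8.32 at E18, of 5.02 and 5.07 at P5, and of 6.56 and 7.01 in Adult. It fell at P5 (log2 change -0.72, SE 0.13, adjusted p = 0.0286; a call lost in 6 of 6 fits that each left out a library, at adjusted p up to 0.244), and its Adult libraries lay above those of P5 and below those of E18 without a called change (log2 change 0.36, SE 0.13, adjusted p = 0.0553 against P5). Neo1, the Dcc relative that also binds repulsive guidance molecules, was the highest receptor of the system in every library, with FPKM of 32.1 and 34.6 at E18, of 37.1 and 55.1 at P5, and of 24.6 and 25.3 in Adult. It fell in Adult against P5 (log2 change -0.83, SE 0.19, adjusted p = 0.00914), a call lost without either Adult library (adjusted p = 0.0595 and 0.0521). Ntn4, a netrin found in basement membranes and the netrin among the 60 genes, had FPKM of 2.88 and 3.07 at E18, of 2.51 and 3.18 at P5, and of 2.28 and 3.48 in Adult, and the ages overlapped. The shares of the 6 receptors moved with these changes: Unc5d was 19.3% and 20.97% of their sum in Adult, against 3.90% and 2.50% at P5, and Neo1 was 32.2% and 28.8% in Adult, against 60.1% and 66.4% at P5. Unc50 had FPKM of 27.3 and 29.9 at E18, of 34.9 and 34.7 at P5, and of 33.9 and 31.5 in Adult and was not called.

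Isoforms changed in opposite directions in some genes whose sum was not called. Of 231 isoforms 145 were tested. In Adult against P5, 31 rose and 54 fell (58.62%, where 43.3% of all 34941 tested isoforms were called, 19.2% rising and 24.1% falling), and in Adult against E18, 24 rose and 60 fell (57.93%, where 44.7% were called, 17.9% rising and 26.8% falling). In P5 against E18 none rose and 2 fell, Sema4g-203 and Plxnb2-202 (1.379%, where 1.63% were called, 0.804% rising and 0.824% falling), and both calls were lost whichever library was left out. Without P5 library b, 56 isoforms were called in Adult against P5, and in Adult against E18 there were 49 without E18 replicate 1 and 41 without E18 replicate 2. In Adult against P5, 14 of the called isoforms belonged to 9 genes that were not called, and 2 changed against the direction of their gene, both of them in Neo1.

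**Figure D5:**
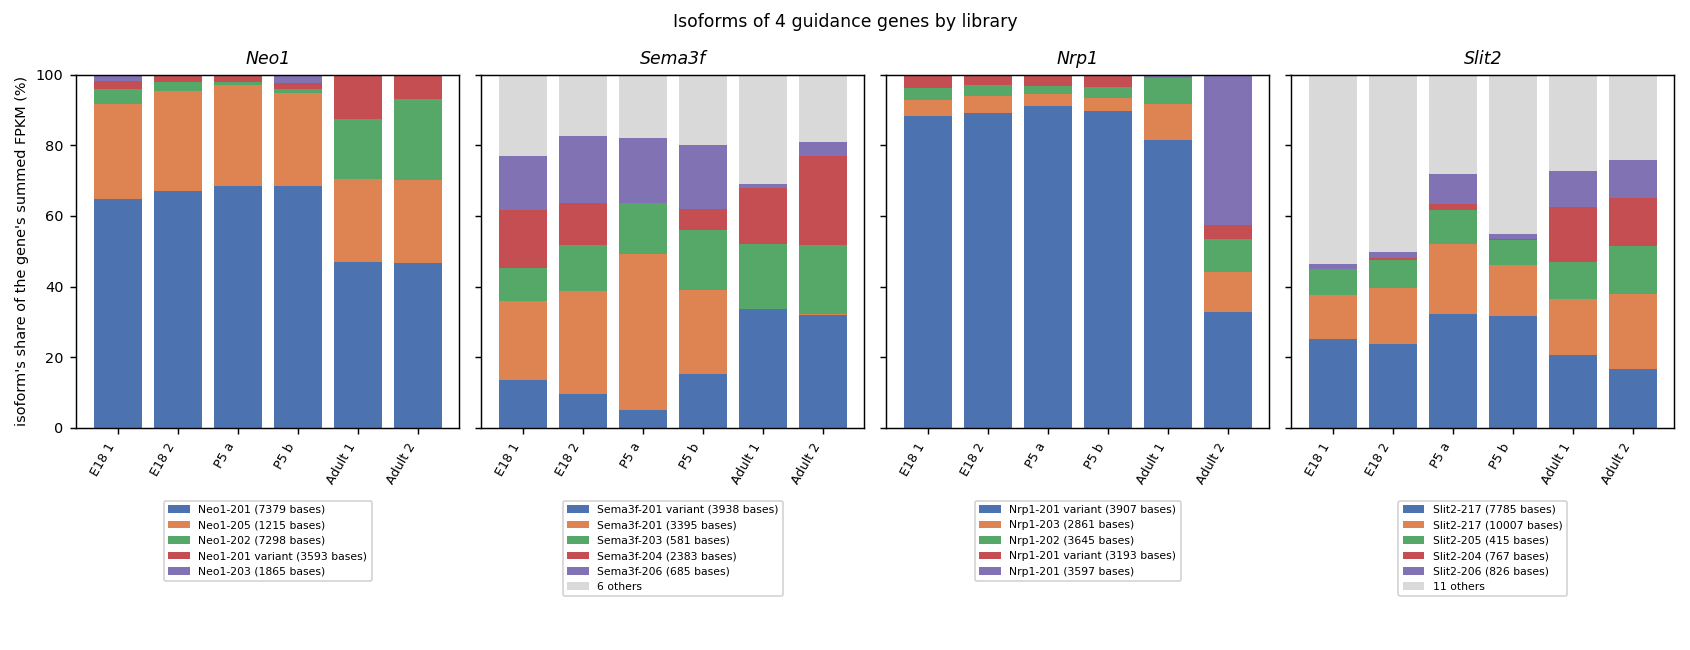
Share of each isoform in the summed FPKM of its gene, in percent, for 4 genes (panels) and 6 libraries (bars, E18 to Adult), with the 5 isoforms of highest mean coloured. Neo1-202 has a larger share in the Adult bars, the annotated Sema3f-201 all but vanishes there, and an unannotated variant makes up most of Nrp1 at E18 and P5.

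Neo1-201 and Neo1-202 differ by short in-frame segments. Neo1-201, with 1492 residues, had FPKM of 20.8 and 23.2 at E18, of 25.4 and 37.7 at P5, and of 11.5 and 11.8 in Adult and fell in Adult against P5 (log2 change -1.34, adjusted p = 0.00398). Neo1-202, with 1465 residues, had FPKM of 1.33 and 0.815 at E18, of 0.367 and 0.633 at P5, and of 4.17 and 5.79 in Adult and rose (log2 change 1.99, adjusted p = 0.00219). Its share of the gene was 16.9% and 22.9% in Adult, against 0.990% and 1.15% at P5. A shorter coding form, Neo1-205, with 405 residues, lay above Neo1-202 in every library; it had FPKM of 8.65 and 9.82 at E18, of 10.6 and 14.5 at P5, and of 5.80 and 6.01 in Adult and fell (log2 change -0.95, adjusted p = 0.00959). Neo1-202 lacks the segments below, which add 16 and 11 residues to Neo1-201 (GRCm38, sense strand; all letters are exonic, so none is in capitals).
Neo1 exon 17, start part, chr9:58907047-58907094, minus strand: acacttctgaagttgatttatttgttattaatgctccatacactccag
Neo1 exon 21, whole exon, chr9:58902083-58902115, minus strand: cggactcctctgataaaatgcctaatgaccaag
Both lengths are multiples of a codon. The segments rest on annotated transcripts, and reads over their junctions were not analysed here.

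Sema3f, not called as a gene, held 4 called isoforms in Adult against P5, of which 2 rose and 2 fell. Sema3f-201, with 754 residues, had FPKM of 4.14 and 5.76 at E18, of 3.70 and 3.19 at P5, and of 0 and 0.0172 in Adult (log2 change -2.14, adjusted p = 0.00108), and the short Sema3f-206 fell too (log2 change -1.10, adjusted p = 0.0147). Sema3f-204, with 785 residues, had FPKM of 3.02 and 2.34 at E18, of 0.00363 and 0.782 at P5, and of 3.996 and 2.74 in Adult and rose against P5 (log2 change 1.69, adjusted p = 0.00997), although its E18 libraries were about as high as those of Adult. The longer form has an extra exon of 31 residues, its exon 5.
Sema3f exon 5, chr9:107691356-107691448, minus strand: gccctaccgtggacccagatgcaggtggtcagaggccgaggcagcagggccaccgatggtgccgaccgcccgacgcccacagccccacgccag
A splice variant of 3938 bases that is not in the annotation rose as well (log2 change 1.65, adjusted p = 0.0379). It had FPKM of 2.46 and 1.93 at E18, of 0.427 and 2.05 at P5, and of 8.59 and 3.49 in Adult. All 4 such variants of Sema3f have Sema3f-201 as their nearest annotated transcript. Together they made up 58.1% and 41.0% of the gene in Adult, 6.43% and 22.1% at P5, and 21.2% and 14.9% at E18. Whether signal of Sema3f-201 was assigned to these variants was not tested.

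Similar exchanges were seen in other genes. In Sema6a the form of 1031 residues, Sema6a-201, rose to 4.89 and 4.54 FPKM in Adult, against 2.41 and 2.38 FPKM at P5 (log2 change 0.75, adjusted p = 0.0333). The listed 6731-base transcript of Sema6a-202, of 976 residues, fell to 3.95 and 7.73 FPKM in Adult, against 11.1 and 14.6 FPKM at P5 (log2 change -1.07, adjusted p = 0.0303). In Ntn4 the annotated transcript Ntn4-201 had FPKM of 1.05 and 0.563 at E18, of 0.486 and 0.416 at P5, and of 2.28 and 3.48 in Adult (log2 change 1.40, adjusted p = 0.00823), while a variant of 3281 bases had FPKM of 1.83 and 2.51 at E18, of 2.03 and 2.77 at P5, and of 0.00110 and 0.000176 in Adult (log2 change -1.76, adjusted p = 0.00254). The gene sum was level while these transcripts moved in opposite directions.

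Sema4g-203 was near 0 at P5 alone. Sema4g-203 had FPKM of 6.06 and 4.41 at E18, of 0.0937 and 0.0201 at P5, and of 7.17 and 3.92 in Adult, so that its share was 58.4% and 26.6% in Adult, against 1.06% and 0.159% at P5. Sema4g-201 had FPKM of 0.139 and 1.32 at E18, of 3.98 and 5.38 at P5, and of 0.0106 and 2.78 in Adult; both encode 837 residues. Sema4b-204 made up 7.46% and 40.03% of Sema4b in Adult, against 60.4% and 43.96% at E18, with Sema4b-201 making up the rest, and Sema4a-213 made up 42.8% and 31.9% of Sema4a in Adult, against 14.6% and 2.99% at E18. The Adult libraries differed widely in several of these shares. For these isoforms, chosen by the size of the change in share, the shares are a description.

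Called isoforms were also found in other genes without a call. In Adult against P5, Sema4a-201, Ephb6-201 and, in Epha6, a variant outside the annotation were among them, with log2 changes of 0.85, 0.74 and -0.84. Plxnb2-201 fell to near 0 in Adult, against 2.41 and 5.53 FPKM at P5 (log2 change -2.23, adjusted p = 0.0135), while Plxnb2-202, the main form, had FPKM of 19.01 and 18.9 at E18, of 7.05 and 7.94 at P5, and of 9.75 and 11.2 in Adult. Slit1-203 fell in Adult against P5 (log2 change -0.52, adjusted p = 0.0464).

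The large fall of Nrp1 lay in a transcript outside the annotation. A splice variant of 3907 bases that shares junctions with Nrp1-201 had FPKM of 32.1 and 38.2 at E18, of 32.6 and 38.4 at P5, and of 3.50 and 1.25 in Adult, while the annotated Nrp1-201, of 923 residues, was at or near 0 at E18 and P5 and had 0.0382 and 1.63 FPKM in Adult. With annotated isoforms alone, Nrp1 was not called in Adult against P5 (adjusted p = 0.233) or against E18 (0.093). For Epha7 both main forms were higher in Adult than at P5 in each library. Epha7-202, of 610 residues, had FPKM of 2.77 and 3.63 at E18, of 2.77 and 3.19 at P5, and of 4.01 and 6.07 in Adult. Epha7-201, of 998 residues, had FPKM of 1.91 and 2.26 at E18, of 2.54 and 2.09 at P5, and of 3.83 and 5.31 in Adult.

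In Robo2, Nrp2, Ephb2 and Dcc the same isoform led in every library. Robo2-202 had FPKM of 33.8 and 43.4 at E18, of 50.9 and 48.4 at P5, and of 14.97 and 15.9 in Adult (log2 change -1.62, adjusted p = 0.00086), and Robo2-210 had FPKM of 26.03 and 31.1 at E18, of 30.99 and 29.9 at P5, and of 4.95 and 5.24 in Adult (log2 change -2.37, adjusted p = 0.00027). Both lay lower in Adult than in any young library. Nrp2-202 was the leading form of Nrp2, with FPKM of 8.09 and 7.44 at E18, of 16.4 and 13.9 at P5, and of 3.76 and 2.86 in Adult (log2 change -1.91, adjusted p = 0.000829), and Ephb2-201 that of Ephb2, with FPKM of 17.6 and 18.7 at E18, of 11.5 and 13.9 at P5, and of 7.13 and 8.46 in Adult (log2 change -0.64, adjusted p = 0.0218). Dcc-202 led Dcc with FPKM of 9.26 and 7.96 at E18, of 5.02 and 5.07 at P5, and of 6.40 and 5.53 in Adult, its share being 97.6% and 78.9% in the Adult libraries, against 99.996% and 99.99% in those of P5, and was not called against P5 (log2 change 0.20, adjusted p = 0.337).

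Genes downstream of the receptors fell in larger number than they rose in Adult against P5, as did all tested genes (33.7% falling, 26.2% rising). These lists were chosen with earlier results of these data known. Genes are named below for the smallest p or the highest mean in their list, and of those that rose only Chn1 is named. Of 19 tested semaphorin effectors 3 rose and 11 fell, with a median log2 change of -0.79. Dpysl3, a collapsin response mediator protein, had FPKM of 863 and 1011 at E18, of 905 and 923 at P5, and of 25.5 and 16.7 in Adult (log2 change -5.40, adjusted p = 2.57e-05), and Dpysl5, of the same family, had FPKM of 87.3 and 87.6 at E18, of 78.7 and 85.7 at P5, and of 7.32 and 6.73 in Adult (log2 change -3.37, adjusted p = 1.47e-05). Both were high in all young libraries and low in both Adult libraries.

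Of 16 tested ephrin and Eph effectors 4 rose and 5 fell (median -0.14). Chn1, a Rac-inactivating protein that acts below EphA4, had FPKM of 83.8 and 99.98 at E18, of 113 and 89.8 at P5, and of 190.1 and 212 in Adult and rose (log2 change 0.99, adjusted p = 0.00206). The adaptor Nck2 had FPKM of 48.9 and 54.7 at E18, of 33.05 and 45.7 at P5, and of 11.3 and 10.3 in Adult (log2 change -1.76, adjusted p = 0.00033), and Adam10, a protease that sheds ephrins, fell to 7.50 and 8.40 FPKM in Adult, against 17.1 and 17.8 FPKM at P5 (log2 change -1.05, adjusted p = 0.000502). Of 15 Slit and Robo effectors 3 rose and 6 fell (median -0.38). Pak1, a kinase activated by Rac and Cdc42, fell to 32.4 and 31.7 FPKM in Adult, against 74.4 and 74.02 FPKM at P5 (log2 change -1.19, adjusted p = 0.00027), and Gpc1, a proteoglycan that binds Slit, to 13.4 and 13.6 FPKM in Adult, against 46.6 and 56.9 FPKM at P5 (log2 change -1.86, adjusted p = 0.000124).

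Of 16 tested netrin effectors 4 rose and 8 fell (median -0.62). Cdc42, a small GTPase of the growth cone, had FPKM of 344 and 392 at E18, of 455 and 420.4 at P5, and of 139.7 and 156 in Adult (log2 change -1.56, adjusted p = 0.000139). Ablim3, an actin-binding protein, had FPKM of 40.98 and 46.4 at E18, of 73.6 and 69.6 at P5, and of 5.52 and 8.04 in Adult (log2 change -3.24, adjusted p = 5.73e-05), and Vasp, which extends actin filaments, fell to 7.85 and 8.31 FPKM in Adult, against 33.2 and 30.6 FPKM at P5 (log2 change -1.86, adjusted p = 8.98e-05). Of 25 tested guidance ligands and receptors outside these families 8 rose and 9 fell (median -0.06). Draxin, a secreted netrin antagonist, had FPKM of 17.1 and 18.5 at E18, of 6.02 and 6.15 at P5, and of 0.138 and 0.130 in Adult (log2 change -2.64, adjusted p = 5.29e-05), and Islr2, a membrane protein of growing axons, had FPKM of 423 and 494 at E18, of 252 and 332 at P5, and of 4.12 and 2.45 in Adult (log2 change -6.11, adjusted p = 2.61e-05). Islr2, picked as an extreme of its list, fell by more than any of the 55 genes.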

How the data were processed

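The deposited values are isoform FPKM of 6 RGC libraries, 2 per age. Per the submitters' processing notes, the tools were HISAT2, Cufflinks and Cuffdiff and the build was mm10; versions and the use of strand are not given in the sources used here. The authors wrote 0.0001 for 0, which was read as 0. The P5 columns share a header, so those libraries are called a and b. Another 10 columns that hold values for single samples were left unused.

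FPKM were summed per symbol, limma 3.58.1 (R 4.3.3) was run on log2(FPKM + 1) (age as factor, 6 libraries, variance trend) for features with a mean of at least 1 FPKM, and p-values were Benjamini-Hochberg adjusted over all tested features, two-sided. Residual degrees of freedom were 3, beside prior ones of 3.26 (genes) and 2.88 (isoforms). The scripts were tested on simulated data. Depth is unknown. Positions are from GENCODE M21 and promoters from RefSeq.

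Values per library are given, by family, for the 4 genes of smallest p and the 2 of highest mean, and in places for others. The members and all lists were chosen with earlier results of these data known. Alternatives were the pseudocount, filters, TPM, quantile normalization, equal medians, no variance trend, the 4 libraries compared, a replicate block, annotated isoforms alone and leaving out each library.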

Additional observations from a re-analysis of the deposited data

How the results depend on the processing

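No call reversed under any alternative tried. Of the 36 genes called in Adult against P5, 25 kept their call in every alternative in which they were tested, as did 29 of 38 in Adult against E18 and 0 of 8 in P5 against E18. The filter at a mean of 5 FPKM left Efna4, Plxna4, Sema4d, Sema5a and Sema5b untested in both Adult comparisons, and also Epha3 (called against P5) and Efna5 (called against E18). Genes rising in P5 against E18 were 5 with TPM (3 in the report), and genes falling 3 with quantile normalization and 1 with only the 4 libraries compared (5 in the report). Genes rising in Adult numbered 8 against P5 and 7 against E18 with a mean of at least 5 FPKM, where fewer genes were tested, and 7 against P5 with TPM. Isoforms called in P5 against E18 were 4 with TPM, 1 with no variance trend and 0 with only the 4 libraries compared, against 2. Leaving out single libraries gave 0 to 2 rising and 0 to 2 falling genes and 0 to 0 called isoforms in P5 against E18, where 10 to 642 of all 14390 genes were called. It gave 56 to 72 called isoforms in Adult against P5 (56 without P5 library b, against 85), and 41 to 81 in Adult against E18 (49 without E18 replicate 1 and 41 without E18 replicate 2, against 84). Genes rising in Adult against P5 ranged from 13 to 15 and falling from 19 to 23, and in Adult against E18 from 11 to 13 and from 21 to 27. Causes were not tested.

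The labels number the libraries alike at E18 and in Adult but do not say that equal numbers share an animal, litter or day. The numbers were therefore not taken to pair the libraries. Deviations of same-numbered libraries from their age means correlated at 0.0183 over genes. With 2 libraries per age, this value cannot show that pairing is absent. With a replicate block, 11 genes rose and 26 fell in Adult against E18, and 68 isoforms were called. The P5 libraries carry no number in the table.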
